A study of Mus musculus with 10 samples.

Results

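The loci of 5 immediate early genes, Fos, Npas4, Arc, Egr1 and Nr4a1, were examined for H3K27ac in mouse cerebral cortex. A region was a member when it overlapped a window set around its gene in mm9 coordinates. The windows were chr12:86770-86860 kb for Fos, chr19:4975-5000 kb for Npas4, chr15:74490-74515 kb for Arc, chr18:35010-35035 kb for Egr1 and chr15:101080-101110 kb for Nr4a1. They held 11 of the 50898 regions in the table: 6 at Fos, 2 at Nr4a1 and 1 at each of the other genes. By the authors' region classes, 5 members were prom (read here as promoter), 4 were enh (read as enhancer) and 2 were uaProm, a name that neither the labels nor the table explains. Each window held 1 prom region, which is called the promoter region of its gene below. No annotation of mm9 was at hand, so the placing of the windows rests on the rule and was not checked against gene models. In the RefSeq table of GRCm38, the genes next to these loci are Gm38543 and Gm32296 for Fos, Mrpl11 and Slc29a2 for Npas4, Mroh4 and Gm32994 for Arc, Gm41689 and Etf1 for Egr1, and Grasp and Atg101 for Nr4a1. A wide region can therefore also hold elements of a neighbour.

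The libraries came from 10 C57BL/6J mice aged 8 weeks, 5 heterozygous for a knockout of Dnmt3a (Het) and 5 wild type (WT). Dnmt3a encodes an enzyme that sets new DNA methylation, and the gene itself was not analysed here. Each Het mouse had a WT littermate of the same sex, which gives 5 pairs. Pairs 1, 3 and 5 were male and pairs 2 and 4 female, and pairs are called litters below. The labels name no stimulation and describe the knockout allele no further, and Het replicate 5, heterozygous by its genotype label, has cKO in its description. The tissue was bulk cortex, in which fewer cells of a type and less acetylation per cell cannot be told apart. Regions were not assigned to other genes, so the labelled tissue was not checked against cell type markers.

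Immediate early genes are transcribed within minutes of strong synaptic activity, from factors that are already present in the cell. Signalling from calcium and from growth factor receptors acts on CREB, which binds cyclic AMP response elements (CREs), and on SRF, which binds serum response elements. Fos, Npas4, Egr1 and Nr4a1 encode transcription factors that act on later genes, and Arc encodes a protein of dendrites and synapses. Fos is known for several activity-regulated enhancers on both sides of the gene. H3K27ac, acetylation of lysine 27 of histone H3, marks active promoters and enhancers.

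The promoters of 3 of the 5 genes, Fos, Npas4 and Nr4a1, were found in the RefSeq promoter table. They are shown so that the letters just before each start can be read beside the acetylation of the gene. Whether these stretches lie inside the mm9 regions was not tested. Each line gives the 250 bases before the annotated start, 5′ to 3′ on the strand of the gene. The positions are in GRCm38.p6, not in the mm9 of the H3K27ac regions: chr12:85473640-85473889 on the plus strand for Fos, chr19:4989972-4990221 on the minus strand for Npas4 and chr15:101266596-101266845 on the plus strand for Nr4a1. Capitals mark matches to TGACG (the CRE half-site), TATAA (the core of the TATA box) and GCGNGGGCG (the site of the EGR family), each searched on both strands.
Fos: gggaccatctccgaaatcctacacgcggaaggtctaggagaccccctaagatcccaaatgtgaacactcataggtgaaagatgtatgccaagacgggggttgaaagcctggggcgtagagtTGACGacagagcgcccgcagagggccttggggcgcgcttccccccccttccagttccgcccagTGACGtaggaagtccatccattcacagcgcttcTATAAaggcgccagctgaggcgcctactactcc
Npas4: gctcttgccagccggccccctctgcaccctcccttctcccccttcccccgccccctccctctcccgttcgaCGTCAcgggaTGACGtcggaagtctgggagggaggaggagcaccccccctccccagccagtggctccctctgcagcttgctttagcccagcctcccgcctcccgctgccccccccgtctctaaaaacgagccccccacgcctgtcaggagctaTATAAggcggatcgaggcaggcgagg
Nr4a1: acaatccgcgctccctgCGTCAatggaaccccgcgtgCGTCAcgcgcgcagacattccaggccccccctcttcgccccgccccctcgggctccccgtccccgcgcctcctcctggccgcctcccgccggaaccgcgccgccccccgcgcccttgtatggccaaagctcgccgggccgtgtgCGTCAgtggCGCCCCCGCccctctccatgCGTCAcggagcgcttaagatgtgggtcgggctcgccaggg

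The Fos promoter held 2 CRE half-sites, 129 and 66 bases before the start, and a TATAA match 33 bases before it. The Npas4 promoter held 2 half-sites, at 179 and 169 bases, close to each other and on opposite strands, and a TATAA match at 26 bases. The Nr4a1 promoter held 4 half-sites, at 233, 213, 69 and 40 bases, all on the minus strand, no TATAA match and 1 EGR match at 60 bases. Of 32851 promoters of the same length in the table, 17.8% held at least 1 CRE half-site, 3.9% at least 2 and 0.137% at least 4. TATAA was found in 22.8% and the EGR site in 4.70%. The full CRE palindrome TGACGTCA, which contains the half-site, matched none of the 3 and 1.55% of all promoters. The Nr4a1 family site AAAGGTCA matched none of the 3 and 1.34% of all. These matches are descriptions of letters in this stretch.

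Acetylation covered a broad region at 4 of the genes and a narrower one at Fos. The promoter region of Nr4a1 (chr15:101074668-101103815) was 29.1 kb wide, that of Arc (chr15:74488267-74513009) 24.7 kb, that of Egr1 (chr18:35004966-35027244) 22.3 kb and that of Npas4 (chr19:4983325-5002802) 19.5 kb. These were wider than 98.6%, 98.0%, 97.4% and 96.6% of the 16529 prom regions, whose median width was 3057 bp. The promoter region of Fos (chr12:86812144-86817364) was 5.22 kb wide, above 72.9% of prom regions. The 4 broad regions also reached past an edge of their windows, as did the outermost Fos enhancer region. The nearest regions outside the windows lay 3.18 to 42.5 kb from an edge. The closest, a prom region beside the Nr4a1 window at chr15:101113183-101115673, averaged 153 ± 9.41 pseudo-counts over the WT animals and 153 ± 12.2 over the Het animals (SD). Pseudo-counts are the deposited unit, read counts adjusted by the authors to a common library size.

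Per kb of region, the 5 promoter regions were acetylated to similar levels. Arc had 51.7 ± 7.48 pseudo-counts per kb, Egr1 44.0 ± 5.03, Nr4a1 41.4 ± 5.08, Npas4 41.3 ± 5.12 and Fos 40.3 ± 6.75 (SD, n = 10 animals), against a median of 31.2 over all prom regions. Arc lay above Egr1 in 9 of 10 animals, by 7.69 ± 5.94 pseudo-counts per kb. The other neighbours in this order differed by less than their spread: Egr1 and Nr4a1 by 2.53 ± 3.99, Nr4a1 and Npas4 by 0.125 ± 3.01 and Npas4 and Fos by 0.981 ± 3.82. Fos was thus within the spread of the others per kb, while its total signal was the lowest of the 5 in every animal.

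The Fos window held regions on both sides of the promoter, with higher levels per kb at the uaProm than at the enh regions. The uaProm region 18.3 kb upstream (chr12:86795011-86797843) had 47.9 ± 8.68 pseudo-counts per kb and the uaProm region 12.7 kb downstream (chr12:86825541-86829423) had 53.7 ± 8.70. Both means lay above the 40.3 of the promoter region itself and above 91.1% and 94.1% of the 1755 uaProm regions. The 3 enh regions were lower, with 21.5 ± 2.59 pseudo-counts per kb at 37.5 kb upstream (chr12:86775475-86778968), 20.4 ± 5.00 at 5.81 kb upstream (chr12:86808526-86809359) and 17.6 ± 1.81 at 48.0 kb downstream (chr12:86858878-86866569). The median over all enh regions was 17.8. Distances run between region centres, from that of the promoter region, and upstream and downstream follow the plus strand that RefSeq gives for Fos. Between the first and last enh regions of the window, 2 region numbers of that class are absent from the table and were not analysed here. At Nr4a1, the enh region 18.8 kb downstream of the promoter region's centre (chr15:101106127-101109880) had 19.4 ± 2.12 pseudo-counts per kb.

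**Figure D1:**
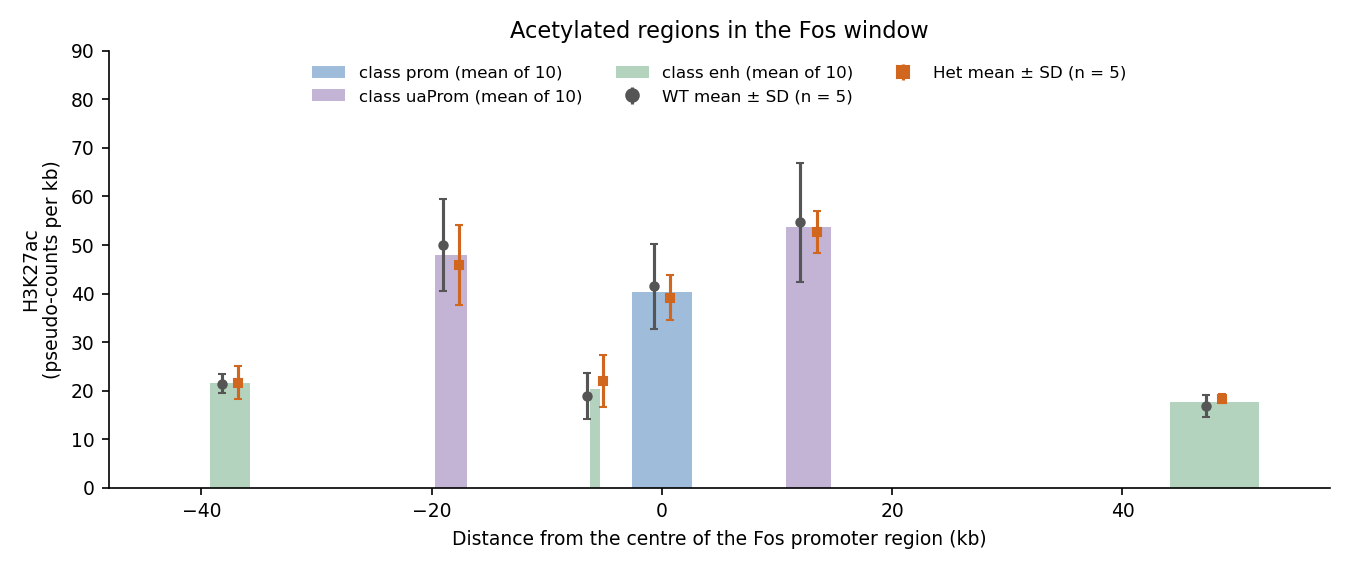
H3K27ac in pseudo-counts per kb (y axis) at the 6 regions of the Fos window, against distance in kb from the centre of the Fos promoter region (x axis). Bars span each region at its mean over 10 animals, and points show the mean ± SD of WT (grey circles) and Het (orange squares), 5 animals each; the 2 uaProm regions and the promoter region stand at 40.3 to 53.7, the 3 enh regions at 17.6 to 21.5, and WT and Het overlap at each.

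The first comparison asked whether the loss of 1 Dnmt3a copy went with a different level of H3K27ac at these genes. No difference between Het and WT was detected at a promoter or flanking region of the 5 genes. The values of the genotypes overlapped at all 11 members. Overlap was not counted over all regions, so it is no result particular to these members. In limma, 0 of the 11 members had an adjusted p under 0.05, against 1 of 50898 regions in all (0.00196%), so that the count at the members is near that of the whole table. None had an unadjusted p under 0.05, against 2.10% of all regions. With the litter as a block, again 0 of 11 passed, against 0.00589% of all regions, and none had an unadjusted p under 0.05, against 4.63%.

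At the Fos promoter region, WT replicates 1 to 5 had 218, 155, 283, 223 and 204 pseudo-counts, and Het replicates 1 to 5 had 196, 189, 240, 218 and 180. The lowest and the highest value both belonged to WT animals, WT replicates 2 and 3. The WT mean was 217 ± 45.9 and the Het mean 205 ± 24.3 (SD over 5 animals), a log2 fold change of -0.064 (SE 0.12) with a limma adjusted p of 1.00. Het was lower in litters 1, 3, 4 and 5 and higher in litter 2.

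At Npas4, which encodes a neuron-specific factor induced by calcium entry, WT replicates 1 to 5 had 757, 685, 955, 890 and 812 pseudo-counts. The Het replicates had 659, 760, 881, 905 and 744 in the same order. The high animals were those of litters 3 and 4 in both genotypes. Means were 820 ± 107 and 789.7 ± 102, with a log2 fold change of -0.054 (SE 0.099), and Het was higher in 2 of 5 litters.

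At Arc, WT replicates 1 to 5 had 1249, 1128, 1192, 1558 and 1135 pseudo-counts. The Het replicates had 1050, 1404, 1480, 1479 and 1107. WT replicate 4 stood apart from the other WT animals, while in Het the replicates 2, 3 and 4 were all high. Means were 1252 ± 178 and 1304 ± 209, with a log2 fold change of 0.053 (SE 0.096), and Het was higher in 2 of 5 litters.

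At Egr1, a zinc finger factor also known as Zif268, WT replicates 1 to 5 had 839, 924, 1035, 1141 and 1008 pseudo-counts. The Het replicates had 782, 916, 1074, 1058 and 1021. The 2 animals of litter 1 were the lowest of their genotypes. Means were 989 ± 115 and 970.2 ± 122, with a log2 fold change of -0.030 (SE 0.096).

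At Nr4a1, an orphan nuclear receptor also called Nur77, WT replicates 1 to 5 had 1116, 1094, 1367, 1491 and 1228 pseudo-counts. The Het replicates had 1068, 1198, 1246, 1277 and 997. Means were 1259 ± 169 and 1157 ± 120. The log2 fold change was -0.12 (SE 0.093), and Het was lower in litters 1, 3, 4 and 5. This region had the smallest p of the 11 members, an unadjusted limma p of 0.212 (adjusted p 1.00), and 0.0728 with the litter block (adjusted p 1.00). Its log2 fold change ran from -0.060 without WT replicate 4 to -0.20 without WT replicate 2 (limma unadjusted p 0.0426, adjusted p 1.00).

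**Figure D2:**
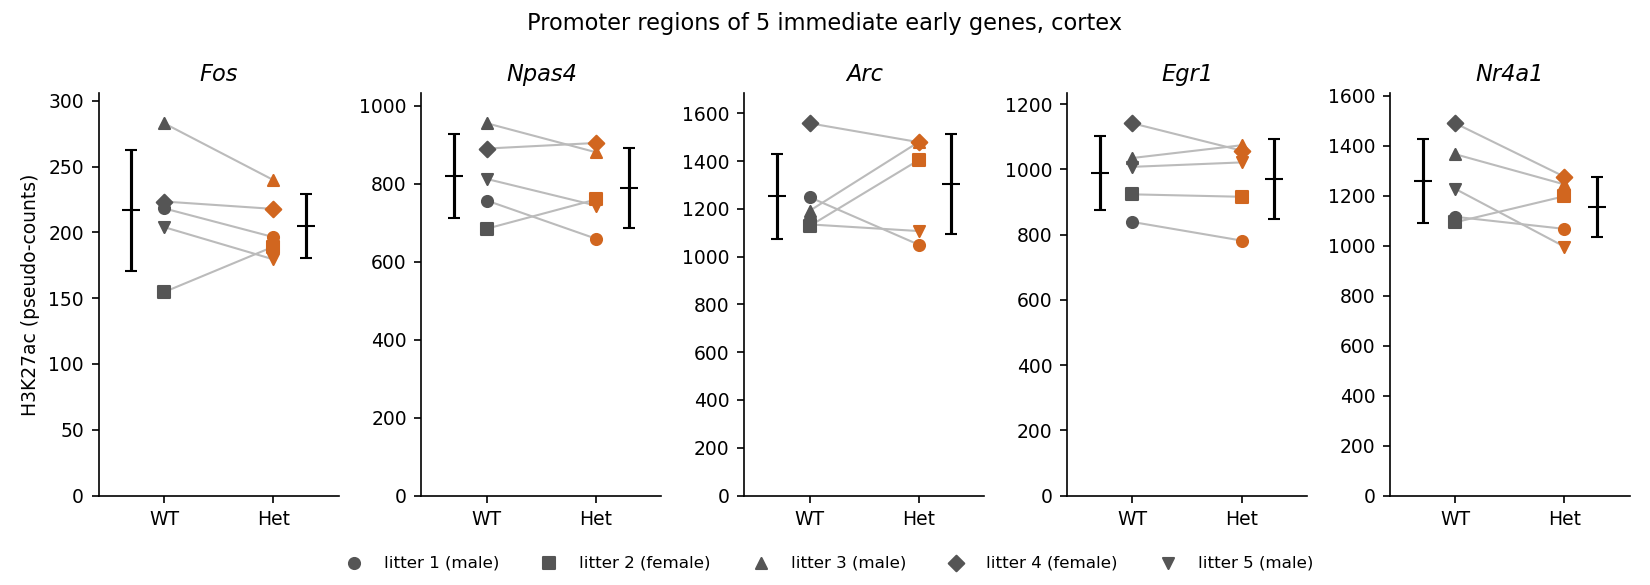
H3K27ac in pseudo-counts (y axis, from 0) at the promoter region of each gene in WT (grey) and Het (orange) animals. Each symbol is a litter and lines join littermates; black bars are means ± SD (n = 5), and the genotypes overlap in every panel, for example 155 to 283 in WT and 180 to 240 in Het at Fos.

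The flanking regions of Fos moved in no common direction. The uaProm region 18.3 kb upstream had 134, 116, 187, 136 and 135 pseudo-counts in WT replicates 1 to 5 and 107, 148, 159, 108 and 127 in Het, with a log2 fold change of -0.12 (SE 0.12), and -0.026 without WT replicate 3. The uaProm region 12.7 kb downstream had 179, 182, 248, 278 and 174 in WT and 192, 211, 222, 216 and 182 in Het, with a log2 fold change of -0.030 (SE 0.11). WT replicate 3 was high at both and WT replicate 4 at the downstream region alone. The enh region 48.0 kb downstream had 148, 121, 138, 138 and 103 in WT and 148, 137, 147, 141 and 132 in Het. It was the 1 member with a higher value in Het in 5 of 5 litters, which was not counted over all regions. It was higher by 0.0015 to 0.34 on the log2 scale. Its log2 fold change was 0.13 (SE 0.11, limma unadjusted p 0.251, adjusted p 1.00), and 0.040 without WT replicate 5. The enh region 5.81 kb upstream, the weakest member with 10.8 to 25.6 pseudo-counts, had 0.21 (SE 0.25), and 0.11 without Het replicate 1 or WT replicate 4. The enh region 37.5 kb upstream, with 57.7 to 86.5, had 0.0012 (SE 0.13). The enh region at Nr4a1, with 57.8 to 87.5, had 0.047 (SE 0.13).

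Over the 11 members, 5 log2 fold changes lay above 0 and 6 below, with a median of -0.030, beside a median of 0.0092 over all regions, of which 53.0% lay above 0. By class, the 5 promoter regions had a median of -0.054 (all prom regions -0.016), the 4 enh regions 0.087 (all enh 0.028) and the 2 uaProm regions -0.077 (all uaProm -0.0016). The 95% interval lay inside 1.5-fold either way, 0.58 on the log2 scale, for 10 of 11 members and for 79.6% of all regions. It ran from -0.30 to 0.17 at the Fos promoter region, -0.26 to 0.15 at Npas4, -0.14 to 0.25 at Arc, -0.22 to 0.16 at Egr1 and -0.31 to 0.070 at Nr4a1. The exception was the weak enh region 5.81 kb upstream of Fos, with an interval from -0.30 to 0.72. In the authors' deposited table all 11 members have an FDR of 1, with log2 fold changes from -0.12 at the uaProm region upstream of Fos to 0.22 at that weak enh region.

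**Figure D3:**
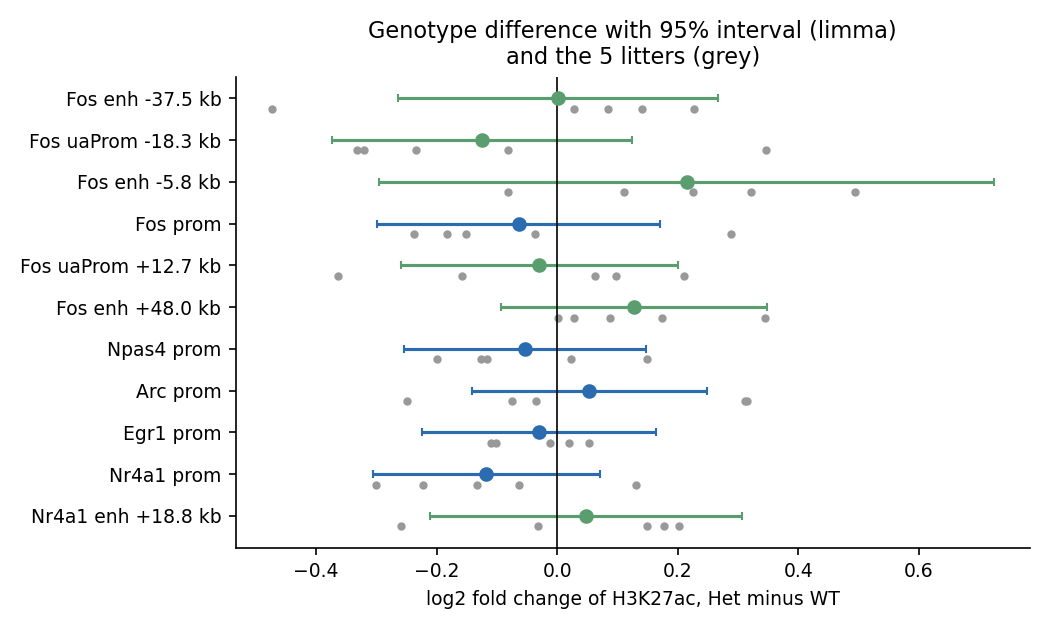
Log2 fold change of H3K27ac, Het minus WT (x axis), at the 11 members (y axis, by gene, class and distance from the promoter region), with the 95% interval of limma in blue for promoter regions and green for the others. Grey points are the 5 litters; every interval includes 0, and all but that of the enh region 5.81 kb upstream of Fos lie inside 1.5-fold.

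Between males and females, 0 of 11 members passed, against 460 of 50898 regions (0.904%), and 1 of 11 had an unadjusted p under 0.05, against 13.2% of all regions. This was the promoter region of Arc, where the 6 males averaged 1202 ± 152 pseudo-counts and the 4 females 1393 ± 187 (SD). Males ranged from 1050 to 1480 and females from 1128 to 1558, so the sexes overlapped. The log2 difference, male minus female, was -0.21 (SE 0.098, limma unadjusted p 0.0389, adjusted p 0.342). The females belonged to litters 2 and 4 and the males to the other 3, and this fit takes littermates as independent. With the litter as a random effect, chosen after seeing the data, 0 of 11 members passed, against 45 of 50898 regions (0.0884%). None then had an unadjusted p under 0.05, against 9.31% of all regions, and Arc had an SE of 0.11 and a limma adjusted p of 0.558 (unadjusted 0.0566). When single libraries were left out, the Arc difference ran from -0.13 without WT replicate 4 (limma adjusted p 0.869) to -0.31 without WT replicate 2 (adjusted p 0.0978). It passed in 1 of these 10 fits, without Het replicate 3, the highest male (-0.27, limma adjusted p 0.0394). The count over all regions ran from 14 without WT replicate 4 to 3580 without Het replicate 3.

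Het minus WT did not differ detectably between the sexes at any member. For this interaction 0 of 11 passed (0.00% of all regions) and none had an unadjusted p under 0.05, against 1.36% of all. The interaction was below 0 at 8 of 11 members, with a median of -0.19 beside -0.0055 over all regions, of which 49.1% lay above 0. This median rested in part on single animals: it was -0.045 without WT replicate 2 (6 of 11 below 0), -0.11 without WT replicate 3, -0.099 without Het replicate 1 and -0.11 without Het replicate 4. Without WT replicate 4 all 11 lay below 0. At the Fos promoter region it was -0.32 (SE 0.24, limma unadjusted p 0.196, adjusted p 1.00). There the Het minus WT log2 differences were -0.15, -0.24 and -0.18 in the male litters 1, 3 and 5 and 0.29 and -0.036 in the female litters 2 and 4.

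The spread between animals was wider at the promoter and uaProm regions of Fos than at most regions of their class and strength, but not at its enh regions. From the lowest to the highest animal the values spanned 1.83-fold at the Fos promoter region, 1.495-fold at Nr4a1, 1.48-fold at Arc, 1.46-fold at Egr1 and 1.45-fold at Npas4. The spread between animals that sex and genotype leave, as the SD of log2 values, was 0.25 at the Fos promoter region. That was above 93.5% of the 2949 prom regions in the same decile of mean signal, whose median was 0.16. The 2 uaProm regions beside Fos were likewise high for their class and strength, at 0.26 upstream and 0.24 downstream, above 91.7% of 229 and 90.1% of 252 uaProm regions. The Fos enh regions 37.5 kb upstream, 5.81 kb upstream and 48.0 kb downstream lay above 44.8%, 21.6% and 39.5% of enh regions in their deciles. The Nr4a1 enh region lay above 9.8%. The promoter regions of Npas4, Arc, Egr1 and Nr4a1 had 0.20, 0.20, 0.19 and 0.17, above 77.2%, 75.0%, 70.8% and 62.7% of 3463 prom regions in the top decile. The reads behind a value, recovered from the pseudo-counts, ran from 7 at the weak Fos enh region to 2116 at Arc. At the Fos promoter region they were at least 100, in WT replicate 5.

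The second question was whether the 5 genes vary together from animal to animal. Their promoter regions did so in the deposited values: Pearson's r over the 10 animals was above 0 in 10 of 10 pairs, from 0.38 to 0.83, with a median of 0.67. After adjustment over the 10 pairs, 3 passed by permutation, all with Npas4. Npas4 and Nr4a1 had r = 0.83 (permutation p = 0.0032, adjusted p = 0.0161) and Spearman's rho = 0.93 (permutation p = 0.0004, adjusted p = 0.0038). Fos and Npas4 had r = 0.81 (permutation p = 0.0032, adjusted p = 0.0161) and rho = 0.77 (permutation p = 0.013, adjusted p = 0.0299). Npas4 and Egr1 had r = 0.80 (permutation p = 0.0051, adjusted p = 0.0171) and rho = 0.76 (permutation p = 0.015, adjusted p = 0.0299). The lowest were Fos with Egr1 (r = 0.38, permutation p = 0.279, adjusted p = 0.28) and Fos with Arc (r = 0.38, permutation p = 0.28, adjusted p = 0.28). Littermates are not independent, so these p-values are too small. Each pair was also taken without the 2 animals farthest from the median of its first-named gene, so the animals left out can differ by pair. Then r fell to 0.79 for Npas4 and Nr4a1, 0.69 for Fos and Npas4 and 0.75 for Npas4 and Egr1, and no pair passed after adjustment. Without Het replicate 1, Npas4 and Egr1 no longer passed (r = 0.71, exact permutation adjusted p = 0.112). Without WT replicate 3, 5 pairs passed, and with TMM or median-of-ratios factors in place of the deposited scaling, 8 pairs passed.

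High r values are common over 10 libraries, so those of the 5 genes stand here beside the r values of other prom regions. The r of the Fos promoter region with the 16528 others had a median of 0.063 and lay between -0.58 and 0.69 for the middle 90%. Its r with Npas4 was above 99.0% of them, with Nr4a1 above 94.3%, with Arc above 75.9% and with Egr1 above 75.6%. For the Npas4 region, r with Fos was above 95.8% of other prom regions, with Nr4a1 above 96.6%, with Egr1 above 95.4% and with Arc above 84.6%. Seen from the other gene, the shares for Fos were 84.4% at Nr4a1, 71.5% at Egr1 and 67.2% at Arc, and those for Npas4 were 98.1% at Egr1, 95.7% at Nr4a1 and 81.3% at Arc. The 3 pairs among Arc, Egr1 and Nr4a1 lay above 78.3% to 90.8% of the r values of either region. All these shares are over prom regions of any strength, and they were not matched by mean signal.

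Litters and the concentration of signal in a library moved with these values, and their part in the correlations was not tested beyond the settings given below. The 4 animals of litters 3 and 4 were the highest 4 of 10 at Npas4, Egr1 and Nr4a1 and 3 of the highest 4 at Fos and Arc. At Npas4 they had 881 to 955 pseudo-counts, against 659 to 812 in the other 6 animals. The same 4 libraries held the largest share of their signal in the strongest 5% of regions, 31.5 to 33.6%, against 28.2 to 31.02% in the others. Over the 10 animals this share correlated with the promoter regions of Arc (r = 0.91, permutation p = 0.0001, adjusted p = 0.0016 over 11 members; rho = 0.94, permutation p = 0.0002, adjusted p = 0.0015), Npas4 (r = 0.83, permutation p = 0.0036, adjusted p = 0.0131; rho = 0.87, permutation p = 0.0023, adjusted p = 0.0083), Nr4a1 (r = 0.83, permutation p = 0.0036, adjusted p = 0.0131; rho = 0.93, permutation p = 0.0003, adjusted p = 0.0015) and Egr1 (r = 0.80, permutation p = 0.0052, adjusted p = 0.0141; rho = 0.82, permutation p = 0.006, adjusted p = 0.0164). For Fos it was lower (r = 0.53, permutation p = 0.109, adjusted p = 0.15; rho = 0.71, permutation p = 0.0256, adjusted p = 0.0402). Without the 2 libraries farthest from the median share, r was 0.85, 0.74, 0.73, 0.54 and 0.62 in the same order. The share is itself a sum over strong regions, and members were not left out of it. The promoter regions of Arc, Npas4, Nr4a1 and Egr1 stood in decile 10 of mean signal. That of Fos stood in decile 9, as did the uaProm region downstream of it. A positive r at a region within the strongest 5% was thus likely from the way the share is built, and its p-value is no separate support. Decile 9 lies below the strongest 5%, so these Fos regions are no part of the share. Their r was not set beside regions of like strength, so its p-value is no separate support either. The median r with this share over all prom regions was 0.020. Those regions were mostly weaker, with a median signal of 111 pseudo-counts, and r was not taken over prom regions of like strength. Of the regions flanking Fos, the uaProm region 12.7 kb downstream also rose with this share (r = 0.75, permutation p = 0.0123, adjusted p = 0.0226; rho = 0.73, permutation p = 0.0198, adjusted p = 0.0402; r = 0.72 without those 2 libraries). The 2 enh regions upstream of Fos ran the other way, with r = -0.79 at 37.5 kb (permutation p = 0.0064, adjusted p = 0.0141; rho = -0.72, permutation p = 0.0245, adjusted p = 0.0402) and r = -0.72 at 5.81 kb (permutation p = 0.0185, adjusted p = 0.0291; rho = -0.59, permutation p = 0.0811, adjusted p = 0.0991), of which the second was -0.22 without those 2 libraries. These enh regions stood in deciles 7 and 1 of mean signal. Values share a common library size, so a larger share in the strongest regions leaves less, on average, for the rest. A negative r at a weaker region was thus also likely from the way the share is built, and its p-value is no separate support. No r with the share was taken over all enh regions. For a further setting, litters 3 and 4 were grouped here by style of sample name, apart from litters 1 and 2 and from litter 5. This setting was added after seeing the data, and its group of litters 3 and 4 is the same 4 animals. The sample titles of litters 1 to 4 share a form, a number, a dash and a number, so titles alone do not set litters 3 and 4 apart. The sources used here do not say whether the grouping marks a batch. No r is given within a name style, since each holds 4 animals or fewer.

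**Figure D4:**
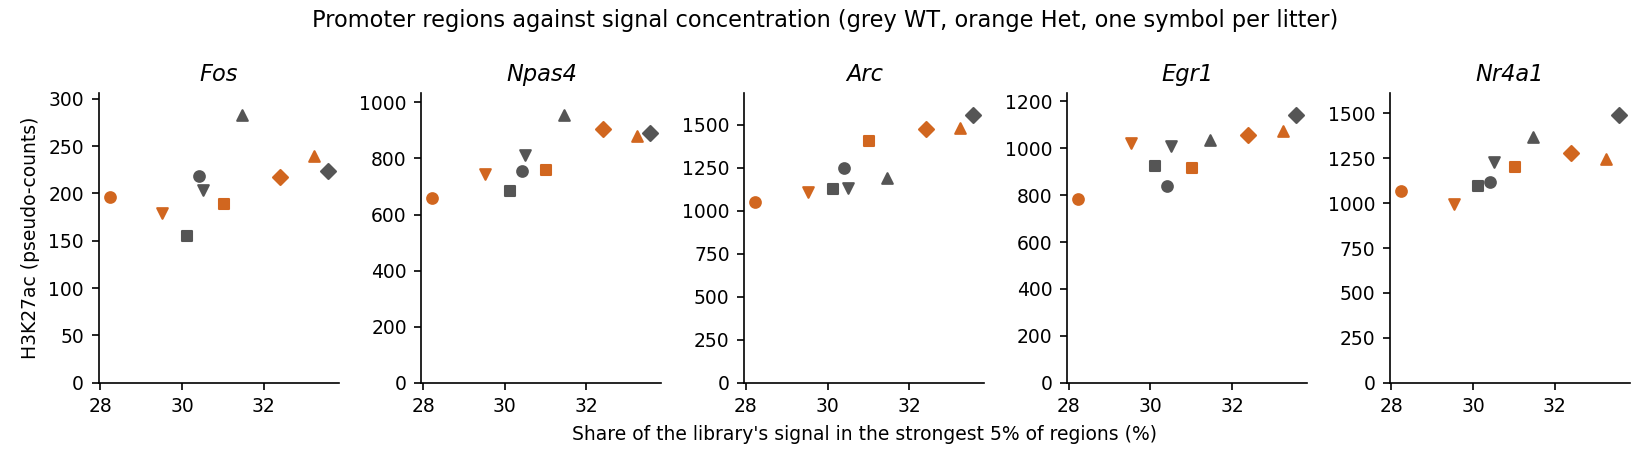
H3K27ac in pseudo-counts (y axis, from 0) at the 5 promoter regions against the share of each library's signal in the strongest 5% of regions (x axis, percent). Points are the 10 animals, grey for WT and orange for Het, with 1 symbol per litter; litters 3 (upward triangles) and 4 (diamonds) stand at 31.5 to 33.6% and are the 4 highest animals at Npas4, Egr1 and Nr4a1.

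After cyclic loess, the median r of the 10 pairs was 0.092, against 0.67 in the deposited values. The r of Fos and Npas4, the highest of the 10 after loess, was about that in the deposited values. Cyclic loess between libraries, which fits trends of the log ratio along mean signal, left Fos and Npas4 at r = 0.82 (permutation p = 0.0064, adjusted p = 0.0643), above 99.4% of the r values of either region with other prom regions. The other 9 pairs ranged from -0.19 for Arc and Egr1 to 0.55 for Fos and Nr4a1, and no pair passed after adjustment. Among the r values of either region with other prom regions, these 9 lay above 24.9% (Arc and Egr1, at Egr1) to 93.0% (Fos and Nr4a1, at Nr4a1). After loess, r with the share of signal in the strongest regions was weaker at the regions listed here, and what was left was not tested. At the promoter regions it was 0.66 at Arc, 0.45 at Npas4, 0.41 at Fos, 0.30 at Nr4a1 and 0.29 at Egr1. It was 0.66 at the uaProm region downstream of Fos and -0.61 at the enh region 37.5 kb upstream. A setting added after seeing the data took out sex, genotype and the grouping by name style. There Fos and Npas4 had r = 0.86, Fos and Nr4a1 0.75 and the other pairs -0.18 to 0.52. With only sex and genotype taken out, all 10 pairs lay between 0.50 and 0.92. Within litters, the Het minus WT differences of Fos and Npas4 had the same sign in 4 of 5 litters, of Fos and Nr4a1 in 5 of 5, and of Npas4 and Egr1 in 1 of 5. Whether the pairs differ from one another was not tested.

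**Figure D5:**
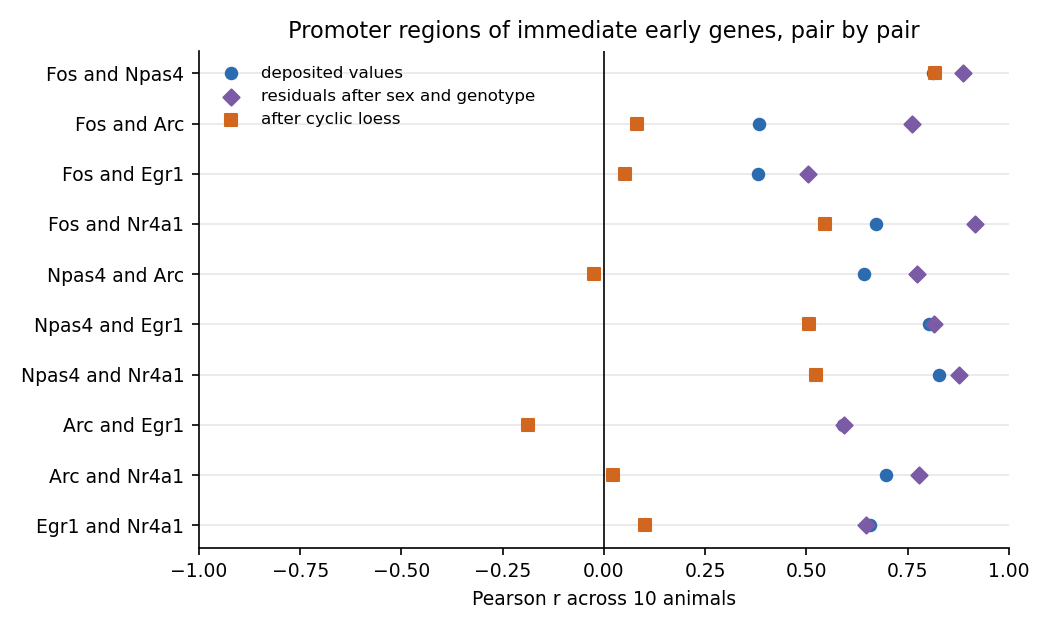
Pearson's r across 10 animals (x axis) for the 10 pairs of promoter regions (y axis), in the deposited values (blue circles), after removal of sex and genotype (purple diamonds) and after cyclic loess (orange squares). Blue circles lie between 0.38 and 0.83; after loess the pair of Fos and Npas4 stays at 0.82 while the others fall between -0.19 and 0.55.

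Within the Fos window, r with the promoter region was higher for the uaProm regions than for the enh regions. Over the 10 animals, r with the Fos promoter region was 0.66 for the uaProm region upstream and 0.62 for the one downstream, above 97.5% and 96.5% of the 1754 other uaProm regions. After cyclic loess these were 0.64 and 0.54, above 97.1% and 93.8% of other uaProm regions. The downstream region is also the one whose values rose with the share of signal in the strongest regions (r = 0.75). For the enh regions r was -0.22 at 37.5 kb upstream, -0.14 at 5.81 kb upstream and 0.37 at 48.0 kb downstream, above 54.2%, 63.8% and 96.4% of the 32613 other enh regions. After loess they were 0.080, 0.33 and 0.37, above 65.1%, 86.8% and 89.3% of other enh regions. Against its own class in the deposited values, the enh region 48.0 kb downstream thus stood about as high as the downstream uaProm region. The Nr4a1 enh region had r = -0.46 with the Nr4a1 promoter region and -0.19 after loess. These values are descriptions over the same 10 libraries, and the difference between classes was not tested. The weak region at 5.81 kb rests on 7 to 29 reads per library.

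Other regions of the table were closer to each promoter region than the other immediate early genes were. For its closest partner among the 5, the number of regions with a higher r was 177 at Fos (Npas4), 395 at Egr1 (Npas4), 606 at Npas4 (Nr4a1), 764 at Nr4a1 (Npas4) and 3262 at Arc (Nr4a1). For the other partners it reached 8402, for Fos seen from Arc. The region most like the Fos promoter region was the prom region chr9:64581560-64586467 (r = 0.97 over 10 animals). For Npas4 it was chr11:69808451-69812089 (r = 0.97), for Arc chr11:72826896-72838996 (r = 0.98), for Egr1 the uaProm region chr2:154875482-154877930 (r = 0.98) and for Nr4a1 chr11:93745839-93748795 (r = 0.97). Among the 3 regions most like Arc was chr18:35042542-35048995 (r = 0.98), the uaProm region that lies just outside the Egr1 window, which was singled out after its value was seen. The other regions among the first 3 of each gene had r from 0.94 to 0.98. All were picked as the largest of the values over 50898 regions.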

How the data were processed

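H3K27ac was measured by ChIP-seq in the cortex of 10 mice. The submitters' processing notes name Bowtie2, edgeR and mm9, without versions, and how regions were called and classed was not stated. The authors deposited 1 signal value per region and library, pseudo-counts per the file headers, in which reads are adjusted to a common library size; this equalises depth and would hide a uniform change. Their fold changes (log2), mean log2 CPM, p-values and FDR per region stand beside it, per the file headers.

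Members were the regions overlapping the windows; widths are end minus start. The members, lists and tests were chosen with earlier results of these data known. Named were all members and, of the 3 regions most like each promoter region by Pearson's r over 10 libraries, the first. Other activity-regulated genes of the plan needed an mm9 annotation and were not analysed here.

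To recover reads, the adjustment was undone with a dispersion of 0.01508; 100% of values came within 0.1 read of a whole number. Libraries held 2771534 (WT replicate 5) to 8453140 (Het replicate 2) reads in regions, with a median of 58 per region. The inversion uses genotype means, so the values carry the labels. The steps were not linear, so the reads served for depth and a limma-voom alternative. Count tests had been planned only for counts. For these values limma 3.58.1 (R 4.3.3), with its trend and robust options, modelled log2(value + 1) by genotype and sex over all 50898 regions, with Benjamini-Hochberg adjustment at 0.05. A fold change on this scale understates the change of a weak region. Permutation tests were two-sided with 100000 resamples, exact below 10 values. P-values treat the animals as independent.

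The labels name littermates, so replicate numbers pair the samples. Littermates' deviations from their genotype means had r = 0.23, 0.12, 0.080, 0.36 and 0.42 in litters 1 to 5. Alternatives were pseudocounts of 0.5 and 5, TMM and median-of-ratios factors, cyclic loess, only regions averaging 20 or more, no sex term, the litter block, limma-voom and leaving out each library. Fits, recovery and permutation test were tested on simulated data.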

Additional observations from a re-analysis of the deposited data

Results flagged for a closer look

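In 22 groups of 5 animals (11 members, 2 genotypes), 2 values lay far from the other 4, and chance gives about 1 in 20. At the uaProm region 18.3 kb upstream of Fos, WT replicate 3 had 187.4 pseudo-counts, against 115.9 to 135.9 in the other WT animals. At the Arc promoter region, WT replicate 4 had 1558 pseudo-counts, against 1128 to 1249 in the other WT animals; in this library the strongest 5% of regions also took their largest share of signal, 33.6%, and its part in the Arc value was not tested.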

How the results depend on the processing

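No member passed between Het and WT under any alternative run, the replicate block (0 members) and limma-voom on recovered reads (0 members, 1 of all regions) included, and the block changed no other call at the members. With sex as the contrast the litter could enter only as a random effect, added after seeing the data, and 0 members passed (45 of all regions, against 460). Leaving out 1 library gave 0 to 1 members between the sexes, the 1 being Arc without Het replicate 3. The enh region 37.5 kb upstream of Fos, at 0.0012, changed sign with TMM factors (-0.014), median-of-ratios factors (-0.020) and loess (-0.0098). When single libraries were left out, the log2 fold change ran from -0.044 to 0.11 there, -0.17 to 0.030 at the Fos promoter region, -0.12 to 0.070 at the downstream uaProm region, -0.13 to 0.013 at Npas4, -0.028 to 0.11 at Arc, -0.084 to 0.044 at Egr1 and -0.013 to 0.11 at the Nr4a1 enh region; the signs of these small differences rest on single animals. The other members kept their sign, with -0.060 to -0.20 at the Nr4a1 promoter region, -0.026 to -0.21 at the upstream uaProm region, 0.040 to 0.18 at the enh region 48.0 kb downstream of Fos and 0.11 to 0.32 at the one 5.81 kb upstream. Of the 10 promoter pairs, 3 passed, against 8 with TMM factors, 8 with median-of-ratios factors, 7 on residuals after sex and genotype, 1 on residuals with the naming style as a further term (added after seeing the data), 0 with loess, 0 without the 2 farthest libraries and 2 to 5 when single libraries were left out. Residuals hold fewer free values than animals, so their p-values are too small. Loess reversed Npas4 with Arc (-0.024) and Arc with Egr1 (-0.19), and the naming style reversed Fos with Egr1 (-0.18) and Egr1 with Nr4a1 (-0.041). The cause was not tested. Differences within litter pairs were given as signs, since 5 pairs are too few for r. Shallow WT replicate 5, with 100 reads at the Fos promoter region, limits precision there. The intervals are for the mean difference between genotypes, built from the spread between animals, and single litters can lie outside them.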
